A study of Arabidopsis thaliana with 9 samples.

Results

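The serine/arginine-rich (SR) proteins are RNA-binding splicing factors, and 10 of their genes in Arabidopsis thaliana were examined. They are SR30 (AT1G09140), SR34 (AT1G02840), SR34a (AT3G49430) and SR34b (AT4G02430), then RS31 (AT3G61860), RS31A (AT2G46610), RS40 (AT4G25500) and RS41 (AT5G52040), and SCL33 (AT1G55310) and SCL30A (AT3G13570). Each was represented by the locus of the deposited table that names the gene, and where several loci of the gene's own strand did, the longest. All 10 genes had such a locus among the 33871 of the table, and all 10 were among the 19569 loci that entered the test. The data were messenger RNA profiles of inflorescences from 9 libraries, 3 in each of 3 groups, sampled from plants 5 weeks old grown at 22 °C in long days. The genotype was 35S:AP1-GR ap1,cal in every group, so the controls carried the transgene and both mutations as well. In this line the constitutive 35S promoter drives the floral regulator APETALA1 fused to a glucocorticoid receptor domain, and the mutations in AP1 and CAL leave the shoot apex as a mass of inflorescence-like meristems. A first group received no treatment, a second was given cycloheximide, which blocks the elongation step of translation and was the study's mock, for 2 h, and the remaining group was given cycloheximide together with dexamethasone, the ligand that activates AP1-GR, for 2 h. The labels call the 3 libraries of a group biological replicates and do not say whether each came from 1 plant or from a pool.

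SR proteins carry RNA recognition motifs and a domain rich in arginine and serine. They bind exonic sequences of the pre-mRNA and help to recruit the factors that recognise splice sites, and kinases that phosphorylate the arginine/serine domain and an importin that carries the proteins into the nucleus act on them. SR30, SR34, SR34a and SR34b form the subfamily related to human SRSF1, RS31, RS31A, RS40 and RS41 form a subfamily found in plants, and SCL33 and SCL30A belong to the plant SC35-like group. Transcripts of plant SR genes are themselves alternatively spliced, often within a long intron, and many of the resulting isoforms hold a premature stop codon, a feature that nonsense-mediated decay, a process that depends on translation, recognises in messenger RNA. The values reported here are totals per locus and do not separate isoforms.

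A long intron is a known feature of many SR genes, and it was located in the reference annotation, in the transcript with the longest coding sequence of each gene. The longest intron of the 10 genes ran from 398 bp in SR34b to 942 bp in SR30, with a median of 753.5 bp. The median longest intron of 21943 intron-containing genes was 277 bp, and 30.6% of these genes had one of at least 398 bp. In 9 of the 10 genes this intron interrupted the coding region, and SR34a was the exception. Read on in frame from the upstream exon, the intron began with a stop codon within its first bases in SCL33 and SCL30A (TGA from base 2) and SR34 (TAA from base 2). The first in-frame stop came at base 11 in SR30, 20 in SR34b, 54 in RS31A, 60 in RS41, 75 in RS40 and 111 in RS31. Annotated transcripts that lacked the whole intron numbered 1 of 7 in SCL33, 2 of 8 in RS40 and 1 of 1 in SCL30A. The 5′ splice site of this intron is shown for these 9 genes, because a transcript that kept the intron would part there from one that spliced it out. Isoforms that hold the stop codon were not looked for. The last 20 bases of the upstream exon are in capitals and the first 40 of the intron in lower case, 5′ to 3′ on the gene's strand, from the RefSeq sequence of build TAIR10.1.
SR30, chr1:2944129-2944188, minus strand: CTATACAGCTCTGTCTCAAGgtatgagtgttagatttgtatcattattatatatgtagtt
SR34, chr1:628450-628509, plus strand: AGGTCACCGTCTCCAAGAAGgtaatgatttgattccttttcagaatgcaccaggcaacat
SR34b, chr4:1070867-1070926, plus strand: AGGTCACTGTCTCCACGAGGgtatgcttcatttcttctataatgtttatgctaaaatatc
RS31, chr3:22902014-22902073, minus strand: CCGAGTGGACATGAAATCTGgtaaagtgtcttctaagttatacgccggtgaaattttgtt
RS31A, chr2:19138347-19138406, minus strand: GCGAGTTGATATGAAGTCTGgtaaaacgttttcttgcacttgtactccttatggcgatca
RS40, chr4:13025254-13025313, plus strand: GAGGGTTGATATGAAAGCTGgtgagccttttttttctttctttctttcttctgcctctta
RS41, chr5:21131167-21131226, plus strand: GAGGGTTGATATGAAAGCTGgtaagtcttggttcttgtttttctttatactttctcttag
SCL33, chr1:20631100-20631159, plus strand: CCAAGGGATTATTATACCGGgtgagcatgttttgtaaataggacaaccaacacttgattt
SCL30A, chr3:4431005-4431064, minus strand: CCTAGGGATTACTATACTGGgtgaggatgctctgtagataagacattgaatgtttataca

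The exonic side of the boundary shared 16 to 20 of 20 bases in 4 of the 5 compared pairs of related genes in which this intron interrupts both coding regions. RS40 and RS41 shared 20 of 20 exonic bases, SCL33 and SCL30A 17 of 20, SR34 and SR34b 17 of 20, RS31 and RS31A 16 of 20, and SR30 and SR34 7 of 20. SR34 and SR34a, also compared, shared 4 of 20. Over the whole intron, in a global alignment and counted over aligned bases, identity was 74.7% between RS40 and RS41, 71.5% between SCL33 and SCL30A, 70.9% between RS31 and RS31A, 76.5% between SR34 and SR34b and 60.8% between SR30 and SR34. The value for SR34 and SR34b covered 362 aligned bases of introns of 818 and 398 bp. The same alignment gave 63.4% between SR34 and SR34a, whose longest introns lie at different places in the gene, so the value for SR30 and SR34 was no higher than that between introns that do not correspond. Related genes can share reads where their sequences are identical, but identity of their exons beyond these 20 bases was not measured. How any shared reads were assigned is not given in the sources used here, so differences between paralogs carry that uncertainty.

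**Figure D1:**
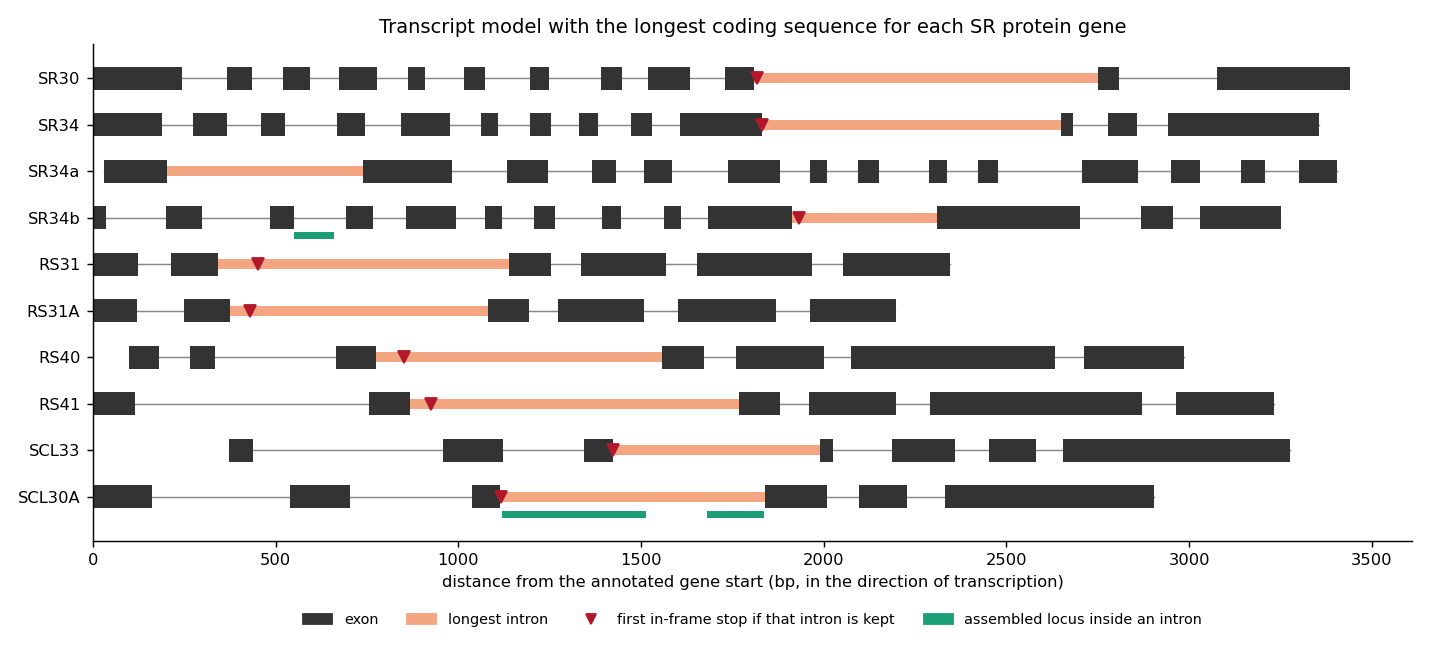
Exons (dark boxes), the longest intron (orange) and the first in-frame stop codon met if that intron is kept (red triangle) in the transcript with the longest coding sequence of each SR protein gene, by distance from the annotated gene start in bp. The long intron follows exon 10 in SR30, SR34 and SR34b, exon 2 or 3 in the RS genes and exon 3 in SCL33 and SCL30A, and green bars mark the separately assembled loci of 108 bp in SR34b and of 394 bp and 155 bp in SCL30A.

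Values are the deposited FPKM, in which the fragments of a locus are divided by its length and by the library total, and the read total per library is not given in the sources used here. Between 22948 and 24198 loci had a value above 0 in each library. Such values depend on everything else in a library, and a single locus held 2.28% to 3.57% of the summed FPKM in untreated libraries, 13.7% to 16.5% under cycloheximide and 22.1% to 22.7% with both compounds. The part of this in the members' values was not tested. In untreated libraries the meristem markers STM and KNAT1 had 145 to 149 and 105 to 131 FPKM. The stem cell marker CLV3 had 13.5 to 17.5 and the meristem marker WUS 6.18 to 7.75, so the labelled inflorescence tissue had its meristem markers. Of the anther tapetum markers, AMS stayed at or below 1.52 in all 9 libraries. The other, A9, had 2.02, 3.28 and 6.37 FPKM untreated, up to near the level of WUS, and at most 5.76 under cycloheximide.

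In untreated inflorescences 8 of the 10 genes had mean levels of 67.8 to 129 FPKM. SR34, an SRSF1 relative, had 129 ± 9.72 FPKM (SD, n = 3), and its range did not overlap that of RS31, next below it among genes with a stable level, at 106 ± 7.37. From RS31 downwards RS41 (103 ± 1.70), SR34a (95.6 ± 11.4), SR30 (89.2 ± 6.80), SCL30A (82.8 ± 9.21) and RS40 (81.0 ± 3.59) each overlapped its neighbour in the order. SCL33 followed at 67.8 ± 7.92, below the range of RS40. RS31A, the paralog of RS31, was by far the lowest at 12.1 ± 0.237 FPKM and had the lowest mean of the 10 in each group. SR34b had no stable level, with 29.1 FPKM in untreated replicate 1 and 236 and 168 in replicates 2 and 3. With both compounds RS31, at 112 ± 5.63, stood above RS41 at 95.3 ± 7.66 with no overlap in their ranges, SR34 (95.2 ± 11.1) overlapped RS41, and RS40 (77.6 ± 13.7) ranked above SR34a (73.7 ± 3.87), SR30 and SCL30A, which all ranked above it in untreated plants. With cycloheximide the order was RS31 (122.9 ± 12.1), SR34 (101 ± 20.9), RS41 (96.8 ± 13.7), RS40 (89.0 ± 11.7), SR34a (67.3 ± 15.0), SR30 (63.6 ± 14.9), SCL30A (56.0 ± 11.2) and SCL33 (43.5 ± 5.68), each overlapping its neighbour.

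**Figure D2:**
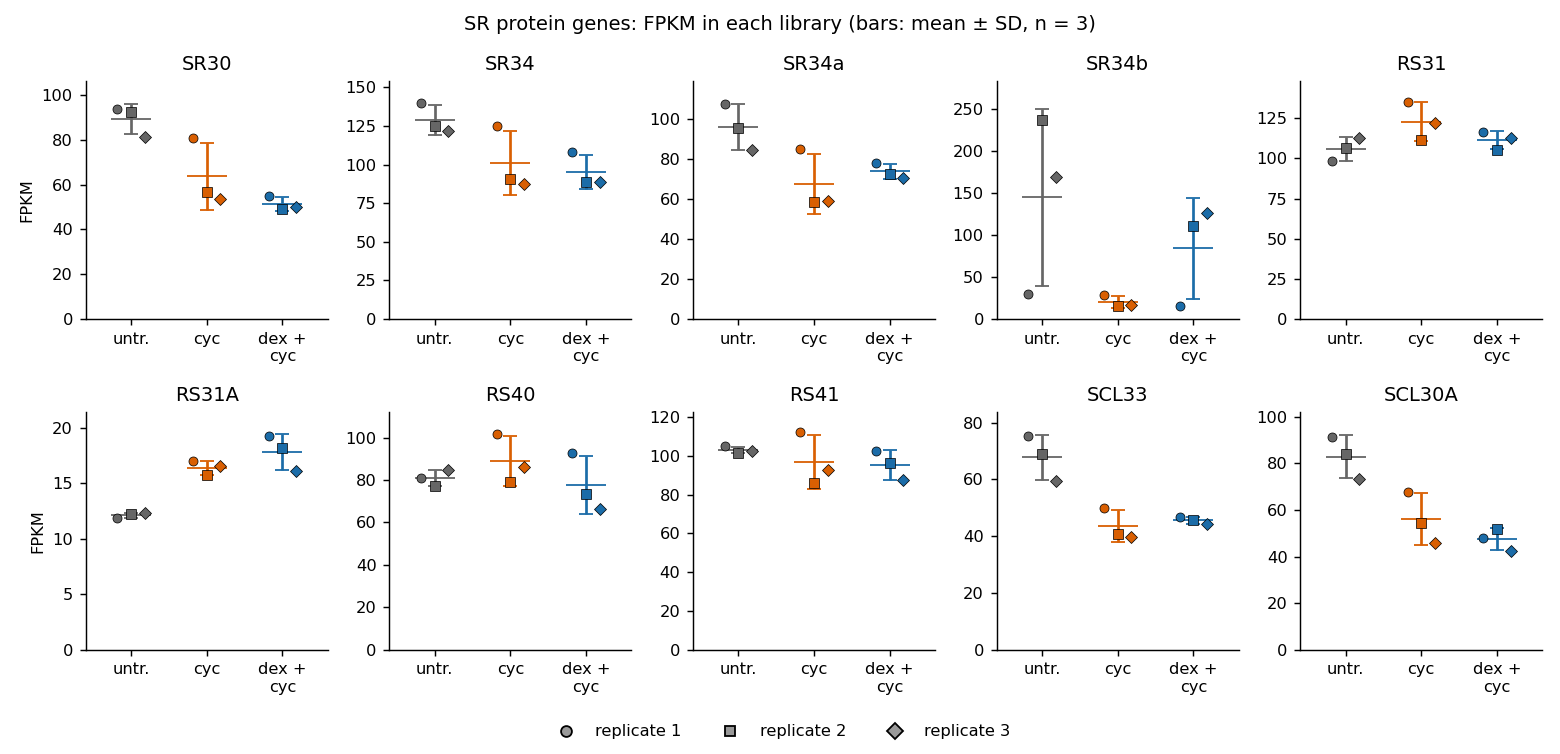
FPKM of each SR protein gene (linear axis from 0, a separate scale per gene) in the untreated, cycloheximide (cyc) and dexamethasone + cycloheximide (dex + cyc) libraries, with markers for the replicate number and bars for mean ± SD, n = 3. SR30, SCL33 and SCL30A lie lower in both treated groups than in untreated libraries, RS31A lies higher, and SR34b splits into 4 libraries at 110.0 to 236 FPKM and 5 at 15.2 to 29.1.

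The comparison of cycloheximide with untreated inflorescences shows how these transcripts differed after 2 h of cycloheximide, and the members moved in both directions. The untreated group received no mock treatment. The block of translation, the application of the compound and the time that passed therefore cannot be told apart here. SR30, SR34a, SCL33 and SCL30A fell and RS31A rose, so 5 of 10 members passed the test (limma, adjusted p under 0.05 over all 19569 loci), 4 of them lower. Of all loci tested 54.7% passed, 28.2% lower and 26.5% higher, so the number of members called was close to that of the whole table. The groups did not overlap for 5 of 10 members, against 64.1% of all loci, and 7 of 10 had an unadjusted p under 0.05, against 60.2%. The median log2 fold change was -0.43 for the members and -0.05 for all loci tested. Of all calls 48.5% were higher as deposited, 36.7% after centring each library on its median and 32.3% after quantile normalization, which moved the median of all loci to -0.17 and -0.22, while the members' calls were 1 higher and 6 lower under each of these scalings. A lower level in whole inflorescences cannot be told apart as less RNA per cell or fewer cells of a type that expresses the gene.

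Among the genes related to SRSF1, SR30 (chr1:2942564-2945961) had 93.9, 92.2 and 81.4 FPKM in untreated replicates 1, 2 and 3 and 80.7, 56.5 and 53.6 with cycloheximide. The highest treated library lay just below the lowest untreated one, and the other two were well below it. SR30, whose protein alters splice site choice in its own pre-mRNA, fell by 0.50 ± 0.15 on the log2 scale (adjusted p = 0.0210), to 0.706 of its untreated level. SR34 (chr1:626741-629993) had 139.7, 125 and 121 FPKM untreated and 125, 90.8 and 87.4 with cycloheximide. Cycloheximide replicate 1 fell within the untreated range, and the log2 fold change of -0.36 ± 0.15 did not pass (adjusted p = 0.0716). SR34a (chr3:18331539-18335139) had 107, 95.4 and 84.3 FPKM untreated and 84.6, 58.3 and 59.0 with cycloheximide. The groups met at 84.3 and 84.6, and SR34a fell by 0.52 ± 0.15 (adjusted p = 0.0210). The calls of SR30 and SR34a each rested on 4 libraries: the adjusted p of SR30 was 0.0664, 0.0651, 0.0731 and 0.0718 without untreated replicate 1, untreated replicate 2, cycloheximide replicate 2 and cycloheximide replicate 3, and that of SR34a 0.0743, 0.0576, 0.0745 and 0.0730. Without cycloheximide replicate 1 SR34 passed as well, with -0.52 (adjusted p = 0.00658).

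SR34b (chr4:1068974-1072249), whose product has been linked to cadmium tolerance, took either of a pair of levels rather than a level per group. It had 29.1, 236 and 168 FPKM in untreated replicates 1 to 3, 28.3, 15.2 and 16.8 under cycloheximide, and 15.4, 110.0 and 126 with both compounds. Untreated replicate 1 and the library of both compounds with that number were about as low as the cycloheximide libraries, while 4 libraries were at or above 110.0. The authors' intervals were widest in these 4 libraries: the deposited lower bound was 4.01 to 10.2 in all 9, and the upper bound was 742, 558, 366 and 387 in the 4 high libraries and 24.6 to 48.0 in the others. The log2 fold change with cycloheximide, -2.39 ± 0.94, did not pass (adjusted p = 0.0613), and it passed in 6 of 20 alternatives, among them without untreated replicate 1 (-3.30, adjusted p = 0.0158) and without dexamethasone + cycloheximide replicate 1 (adjusted p = 0.0252). A separate locus of 108 bp was assembled on the same strand at chr4:1069525-1069632, within an intron in 4 of 4 annotated transcripts of SR34b. It is shown because its FPKM in untreated libraries was the highest among the loci in member genes.
SR34b intronic locus, plus strand: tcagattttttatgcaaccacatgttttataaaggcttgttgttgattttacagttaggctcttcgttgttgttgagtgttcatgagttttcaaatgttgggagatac
This locus had 1897, 1268 and 944 FPKM untreated, 963, 1172 and 454 under cycloheximide and 1307, 1392 and 1521 with both compounds. Its deposited lower bound was 0 in every library, and its upper bound was 2069 to 10937. At so short a locus a few reads give a high FPKM, and among 66 loci within 2 bp of its length the smallest value above 0 was 54.2 to 231 per library. Its highest library, untreated replicate 1, was a low one of the whole SR34b locus, and neither of these comparisons passed (adjusted p = 0.140 for cycloheximide against untreated and 0.242 between the treated groups).

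None of the RS genes was called lower. RS31 (chr3:22900054-22902395), a gene whose alternative splicing responds to light in Arabidopsis leaves, had 98.2, 107 and 113 FPKM untreated and 135, 111 and 122 with cycloheximide. The groups overlapped, and 0.21 ± 0.10 did not pass (adjusted p = 0.0980). RS40 (chr4:13024536-13027569) had 81.1, 77.3 and 84.5 FPKM untreated and 102, 79.1 and 86.0 with cycloheximide, and RS41 (chr5:21130320-21133701), its paralog, had 105, 102 and 102 and then 112, 85.7 and 92.6. Both pairs of groups overlapped, with log2 fold changes of 0.13 ± 0.14 (adjusted p = 0.462) for RS40 and -0.10 ± 0.11 (adjusted p = 0.481) for RS41, whose 95% intervals ran from -0.19 to 0.45 and from -0.35 to 0.16. RS31A had 11.9, 12.2 and 12.3 FPKM untreated and 17.0, 15.7 and 16.5 with cycloheximide. All 3 treated libraries were above all 3 untreated ones, and RS31A rose by 0.41 ± 0.07 (adjusted p = 0.00211), or 1.33-fold. The authors' intervals for RS31A were wide, and those of the groups overlapped. Their lower bound was 0.829 to 1.59 in untreated libraries and 0 in every treated library. The upper bound was 58.4, 55.1 and 62.1 with cycloheximide, and each untreated interval lay within every cycloheximide interval.

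The RS31A value carries a limit of position. Its locus, chr2:19136566-19138762 on the minus strand, also names AT2G46600, a gene on the opposite strand that overlaps its 3′ end, and the locus of that gene at chr2:19136019-19136600 had 115, 121 and 157 FPKM untreated and 830.5, 814 and 938 with cycloheximide. That neighbour rose by 2.72 ± 0.16 on the log2 scale (adjusted p = 5.25e-06). The library kit named in the labels does not mark strand while the study's design text calls the protocol strand-specific, so reads of the neighbour within the overlap may be counted for RS31A, and their part in its rise was not tested. RS40 also shares its locus with an opposite-strand gene, AT4G25510, whose own locus had at most 2.26 FPKM in any library.

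SCL33 and SCL30A, which are closely related and whose products act in part redundantly, both fell. SCL33 (chr1:20630065-20633058), whose protein binds the third intron of its own pre-mRNA and alters its splicing, had 75.1, 68.8 and 59.4 FPKM untreated and 50.0, 40.9 and 39.6 with cycloheximide. No treated library reached the untreated range, and SCL33 fell by 0.63 ± 0.11 (adjusted p = 0.00199), to 0.647 of its untreated level. SCL30A (chr3:4429273-4432159) had 91.5, 83.8 and 73.1 FPKM untreated and 67.8, 54.6 and 45.6 with cycloheximide. These groups did not overlap either, and SCL30A fell by 0.57 ± 0.15 (adjusted p = 0.0134). The calls of SCL33, SCL30A and RS31A passed in 20 of 20 alternatives, with adjusted p of 0.000564 to 0.00996, 0.00266 to 0.0499 and 0.00144 to 0.0315.

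**Figure D3:**
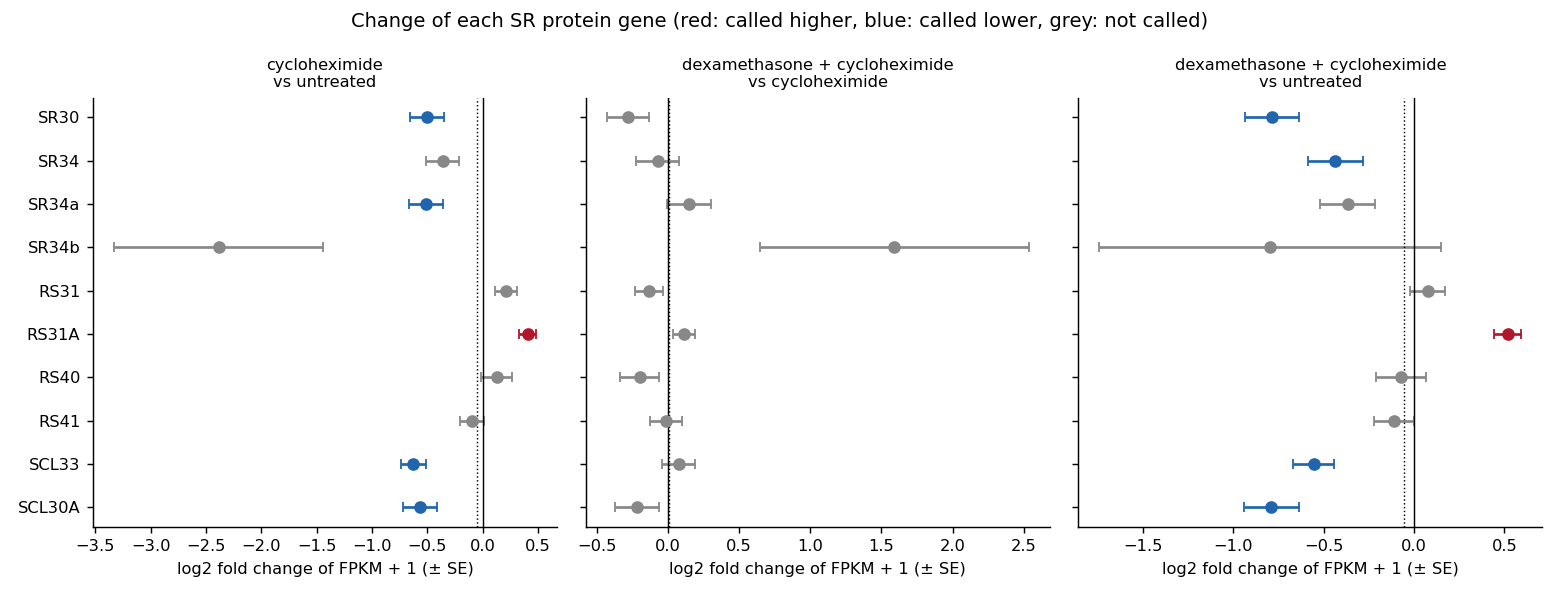
Log2 fold change of FPKM + 1 ± SE for each SR protein gene in the 3 comparisons, coloured red where called higher, blue where called lower and grey where not called, with a dotted line at the median of all tested loci. With cycloheximide SCL33 (-0.63), SCL30A (-0.57), SR34a (-0.52) and SR30 (-0.50) lie below 0 and RS31A (0.41) above it, and no gene is coloured between the treated groups.

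Cycloheximide replicate 1 was the highest library of its group for 10 of 10 members, while this held for 43.2% of all tested loci and 67.0% of the loci that fell with cycloheximide. Replicate 1 of the group with both compounds was the highest of its group for 8 of 10 members and 41.9% of all loci. The summed FPKM of the 9 members other than SR34b was 803, 763 and 732 untreated, 775, 593 and 602 under cycloheximide and 667, 601 and 579 with both compounds, so cycloheximide replicate 1 lay within the untreated range. The same library was also the highest of its group in floral organ markers, with 13.0 FPKM of AP3 against 1.16 and 5.19 and 21.7 of SEP3 against 5.64 and 7.94. Without it the 5 calls held and the falls were larger, -0.73 for SCL33, -0.71 for SCL30A, -0.68 for SR30 and -0.69 for SR34a, with 0.38 for RS31A. Of 4 meristem markers 2 fell and 1 rose with cycloheximide, and their sum was 269 to 304 FPKM untreated, 164 to 204 under cycloheximide and 126 to 160.0 with both compounds. Of 4 floral organ markers 1 fell, with sums of 59.5 to 66.7, 30.5 to 74.5 and 22.0 to 27.1. Of 2 green leaf markers 2 fell, with sums of 3052 to 3322, 1886 to 1999 and 1516 to 2187, and the tapetum markers summed to at most 7.24 in any library. No marker was at 0, and the part of these shifts in the members' values was not tested.

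The comparison of dexamethasone + cycloheximide with cycloheximide addresses the response to active AP1-GR while translation is blocked, and no SR gene passed it. None of the 10 members passed the test with limma, none had an unadjusted p under 0.05 and none had groups that did not overlap. Of all loci tested 3.69% passed, 1.91% higher and 1.78% lower, 23.1% had an unadjusted p under 0.05 and 25.4% had groups that did not overlap. The 723 loci behind the 3.69% depended on single libraries: 246, 157 and 391 passed without untreated replicates 1, 2 and 3, 125, 125 and 1248 without cycloheximide replicates 1, 2 and 3, and 315, 220 and 69 without replicates 1, 2 and 3 of the group with both compounds. No member passed in any of these fits. With both compounds SR30 had 54.8, 49.1 and 49.9 FPKM, SCL33 46.7, 45.6 and 44.4, and SCL30A 48.0, 51.9 and 42.5, each overlapping the range of its cycloheximide libraries. SR34a had 78.0, 72.5 and 70.5, between its 2 lower and its highest cycloheximide library. RS31A had 19.3, 18.2 and 16.1, with 1 library inside the cycloheximide range and 2 above it.

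The intervals show the sizes of difference that these libraries allow. Without the replicate block, the 95% interval of the log2 fold change was -0.19 to 0.33 for SCL33, -0.57 to 0.13 for SCL30A, -0.63 to 0.06 for SR30, -0.42 to 0.27 for SR34 and -0.20 to 0.50 for SR34a. For the RS genes it was -0.36 to 0.09 for RS31, -0.06 to 0.28 for RS31A, -0.52 to 0.12 for RS40 and -0.27 to 0.24 for RS41. The interval of SR34b, -0.58 to 3.76, was too wide to bound a change. The median over the members was -0.04 and that over all loci 0.01. Same-numbered libraries of the treated groups deviated together, and a fit that blocks on the replicate number still called 0 members. With only the 6 treated libraries in the blocked fit, 0 of 10 members had an unadjusted p under 0.05, against 30.8% of all loci. Taken by pair, in a count added after seeing the data, SR30, RS31, RS40 and SCL30A were lower with both compounds in 3 of 3 same-numbered pairs, 4 of 10 members against 25.1% of all loci, and no member was higher in all pairs, against 30.4%. RS31, for example, differed by -0.22, -0.076 and -0.11 on the log2 scale in pairs 1, 2 and 3. The blocked intervals of these 4 genes were -0.58 to 0.013 for SR30, -0.32 to 0.052 for RS31, -0.42 to 0.022 for RS40 and -0.51 to 0.072 for SCL30A. Among the other members they were -0.28 to 0.14 for SR34, -0.14 to 0.44 for SR34a and -0.69 to 3.87 for SR34b. For RS31A the blocked interval was -0.082 to 0.31, for RS41 -0.25 to 0.22 and for SCL33 -0.14 to 0.29. Because all groups had the transgene, dexamethasone as such and active AP1-GR cannot be told apart here.

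Against untreated libraries the group with both compounds differed much as the cycloheximide group did, and these comparisons share the untreated libraries. SR30, SR34, SCL33 and SCL30A were lower and RS31A was higher, 5 of 10 members against 63.9% of all loci, and groups did not overlap for 6 of 10 members against 70.0% of all loci, with an unadjusted p under 0.05 in 6 of 10 against 67.4%. On the log2 scale SR30 stood at -0.78 ± 0.15 (adjusted p = 0.00193), SCL30A at -0.79 ± 0.15 (adjusted p = 0.00208), SCL33 at -0.56 ± 0.11 (adjusted p = 0.00276) and SR34 at -0.44 ± 0.15 (adjusted p = 0.0323). RS31A stood at 0.52 ± 0.07 (adjusted p = 0.000399). SR34a, at -0.37 ± 0.15, missed the threshold (adjusted p = 0.0651). The call of SR34 was lost in 5 of 20 alternatives. Among these were the fits without untreated replicate 1 (adjusted p = 0.101), untreated replicate 2 (0.0658), and replicate 2 (0.0935) or 3 (0.0942) of the group with both compounds. SR34a passed in 6 of 20 alternatives, among them without cycloheximide replicate 1 (0.0127).

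Related genes were also compared within each library, as the log2 ratio of FPKM + 1, which depends little on the scaling of the library except at low levels such as that of RS31A. The log2 ratio of RS40 to RS41 was -0.37, -0.39 and -0.27 in untreated replicates, -0.14, -0.11 and -0.11 under cycloheximide and -0.14, -0.38 and -0.39 with both compounds. It was higher in every cycloheximide library than in every untreated one, by 0.22 (exact permutation test, two-sided, p = 0.1), and lower by 0.19 with both compounds than with cycloheximide (exact p = 0.1), although replicate 1 of that group, at -0.14, lay only just below the cycloheximide range. The log2 ratio of SR30 to SR34 was -0.57, -0.43 and -0.57 untreated, -0.63, -0.67 and -0.69 under cycloheximide and -0.96, -0.84 and -0.82 with both compounds. SR30 was thus lower relative to SR34 by 0.14 with cycloheximide than untreated, and by 0.21 with both compounds than with cycloheximide (exact p = 0.1 each). The log2 ratio of RS31 to RS31A differed by -0.20 between cycloheximide and untreated libraries and by -0.25 between both compounds and cycloheximide (exact p = 0.1 each). The log2 ratio of SCL33 to SCL30A was -0.29 ± 0.01 untreated and -0.35 ± 0.13 with cycloheximide, a difference of -0.06 (exact p = 0.4), and it was 0.29 higher with both compounds than with cycloheximide (exact p = 0.1). With 3 libraries against 3 no p below 0.1 can be had, and after adjustment over the 10 ratio comparisons the values were 0.125 and 0.4, so none passed. These tests did not pair same-numbered libraries of the treated groups.

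SCL30A was the only member with same-strand loci assembled inside the long intron, 2 of them, both in the third intron at chr3:4430320-4431044 of its 1 annotated transcript. The longer, of 394 bp at chr3:4430647-4431040 next to the 5′ splice site printed above, had 71.1, 81.2 and 73.8 FPKM untreated, 51.9, 34.5 and 30.0 under cycloheximide and 33.1, 19.3 and 26.7 with both compounds. All treated libraries were below all untreated ones. It fell with cycloheximide by 0.98 ± 0.23 on the log2 scale (adjusted p = 0.00749) and stood at -1.51 with both compounds against untreated (adjusted p = 0.000576). The authors' intervals were wide at this locus, with a lower bound of 0 in every library and upper bounds of 101 to 367. The difference of -0.53 between the treated groups did not pass (adjusted p = 0.213). Its log2 ratio to the whole SCL30A locus was -0.36, -0.05 and 0.01 untreated and -0.38, -0.65 and -0.59 with cycloheximide, a difference of -0.41 with groups that touched but did not overlap (exact permutation p = 0.1), in a comparison added after seeing the data. With both compounds the ratio was -0.52, -1.38 and -0.65, which overlapped the cycloheximide range and differed from it by -0.31 (exact permutation p = 0.4). The shorter locus, of 155 bp at chr3:4430324-4430478 beside the 3′ end of the intron, is shown because it was assembled separately near the other end of the same intron.
SCL30A intronic locus, minus strand: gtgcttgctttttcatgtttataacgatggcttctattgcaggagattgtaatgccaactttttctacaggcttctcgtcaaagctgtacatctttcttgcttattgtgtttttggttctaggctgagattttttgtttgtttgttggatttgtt
It had 92.3, 80.6 and 71.3 FPKM untreated, 50.1, 55.5 and 33.4 under cycloheximide and 91.5, 10.2 and 0 with both compounds. The value of 10.2 was the smallest above 0 among 71 loci within 2 bp of that length in its library, so the last group holds a library at the smallest step and another listed at 0. No comparison of this locus passed (adjusted p = 0.623 for cycloheximide against untreated). Whether these loci are retained intron or separate transcripts was not tested.

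**Figure D4:**
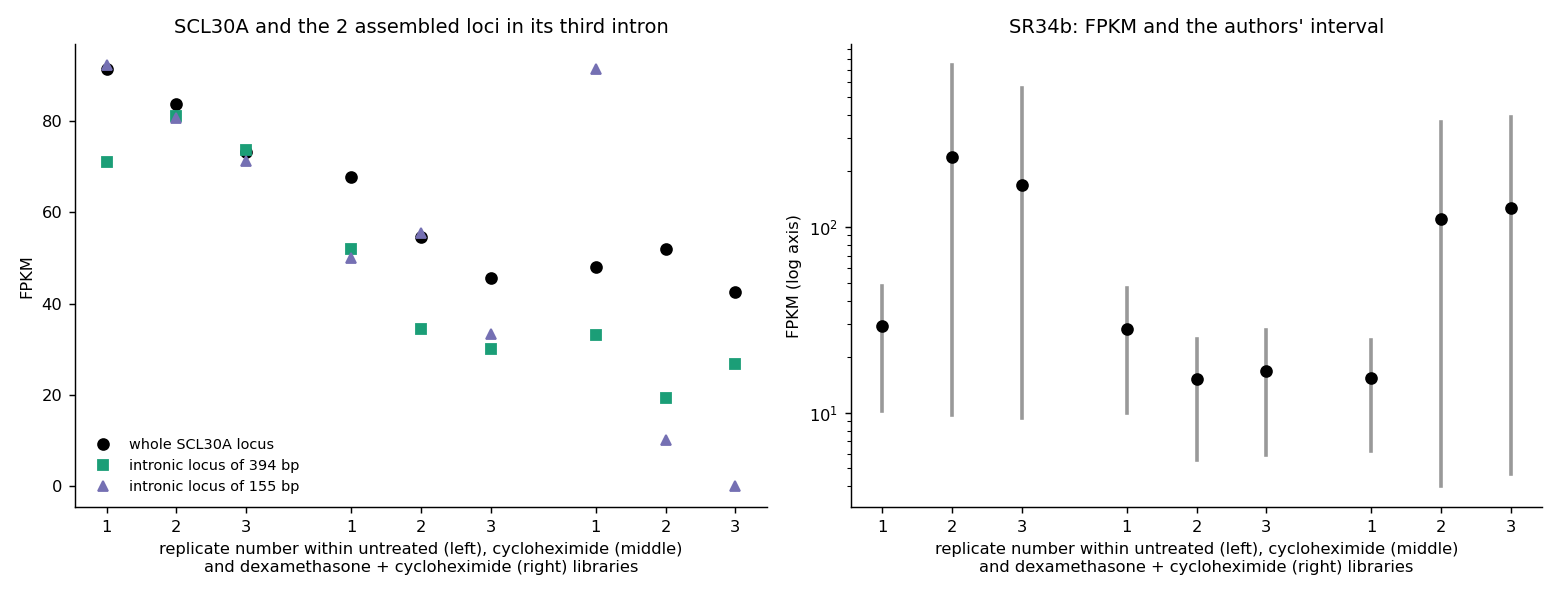
Left, FPKM in each library of the whole SCL30A locus (circles) and of the loci of 394 bp (squares) and 155 bp (triangles) inside the third intron; the 394 bp locus lies at 71.1 to 81.2 in untreated libraries and at 19.3 to 51.9 in treated ones. Right, FPKM of SR34b (points, log axis) with the interval the authors deposited (grey bars), whose upper bound reaches 742 in untreated replicate 2 and stays at or below 48.0 in the 5 libraries with low values.

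Profiles most like a member were sought among 14719 loci that name 1 gene, by the root mean square difference of log2(FPKM + 1) over the 9 libraries after each profile was centred on its own mean. For SR34b, the member with the largest log2 fold change, the nearest were AT3G52050 at 0.845, AT1G45010 at 0.952, AT1G60670 at 0.974, AT5G16030 at 0.982 and AT3G46614 at 1.01. No locus followed the jumps of SR34b closely, and its nearest fellow member, SCL33, ranked 1524. For SCL33, added after seeing the data, the nearest were AT3G63460 at 0.0509, TDP1 at 0.0564, ARFA1F at 0.0612, ATMAK3 at 0.0636 and AT3G08610 at 0.0646. Its nearest fellow members were SR34a at rank 124 (0.101), SR34 at 753 (0.141), SCL30A at 1026 (0.152) and SR30 at 1444 (0.166), so its paralog was not the member with the most similar profile.

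Of the other 8 SR genes 2 fell with cycloheximide, near the 28.2% of all loci that were called lower, none rose, and their median log2 fold change was -0.26. SC35, the relative of human SRSF2, went from 91.2, 90.2 and 78.3 FPKM to 74.8, 59.8 and 61.1, a log2 fold change of -0.41 (adjusted p = 0.0118), and SCL30, the closest SC35-like relative outside the members, from 102, 85.4 and 84.4 to 81.1, 60.3 and 54.8, a change of -0.48 (adjusted p = 0.0486). Of 11 SR-like proteins, kinases and the importer, 2 rose and 3 fell, with a median of 0.09. MOS14, the importin that carries SR proteins into the nucleus, rose from 13.7, 15.4 and 15.2 FPKM to 21.7, 26.6 and 25.4, by 0.70 (adjusted p = 0.000997). AT4G35500, annotated as a protein kinase and entered in the list as an SR protein kinase, rose by 0.63 (adjusted p = 0.000319). The stress-responsive SR-like gene SR45a fell by 0.98 (adjusted p = 0.000602), from 13.4 ± 2.95 FPKM to 6.16 ± 0.304 (SD, n = 3), and SR45 fell by 0.45 (adjusted p = 0.0154).

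Among factors that recognise splice sites early, 5 of 14 fell and none rose, with a median of -0.11. U1A, a protein of the U1 particle, fell by 0.57 (adjusted p = 0.000562), AT4G03120 by 0.63 (adjusted p = 0.000732), AT5G51300, annotated as a splicing factor-like protein, by 0.28 (adjusted p = 0.00410) and U2AF65A, the large subunit of the factor that binds the polypyrimidine tract, by 0.30 (adjusted p = 0.0387). Of 17 core spliceosome genes 7 fell and none rose, with a median of -0.17, among them SAD1, an Lsm protein, by 0.90 (adjusted p = 0.00472), LSM8 by 0.35 (adjusted p = 0.0122), AT2G18740, a small nuclear ribonucleoprotein, by 0.48 (adjusted p = 0.00688) and STA1 by 0.29 (adjusted p = 0.00706). Of 17 hnRNP-type and glycine-rich regulators 9 fell and 1 rose, with a median of -0.25. GRP7, a circadian RNA-binding protein, went from 1500.5, 1336 and 1129 FPKM to 685, 420.0 and 315, a fall of 1.54 (adjusted p = 0.00288), RBP47C fell by 0.66 (adjusted p = 0.00183) and UBP1A by 0.49 (adjusted p = 0.00424), while RBP47B rose by 0.69 (adjusted p = 0.00260). In nonsense-mediated decay and the exon junction complex 2 of 8 rose and 3 fell, with a median of -0.14: the decay factor UPF3 (0.25, adjusted p = 0.0160) was among those that rose, and the exon junction proteins MAGO (-0.46, adjusted p = 0.00908) and Y14 (-0.54, adjusted p = 0.0117) were among those that fell.

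Over these 75 genes 29 fell, 5 rose and 41 did not pass with cycloheximide, beside 28.2% of all loci called lower and 26.5% called higher. The lists were chosen with earlier results of these data known, so their counts describe the listed genes and are no independent result. Between the treated groups none of the 75 passed with limma, and 3 had an unadjusted p under 0.05. Against untreated libraries the group with both compounds had 31 lower and 10 higher, beside 33.1% and 30.8% of all loci.

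**Figure D5:**
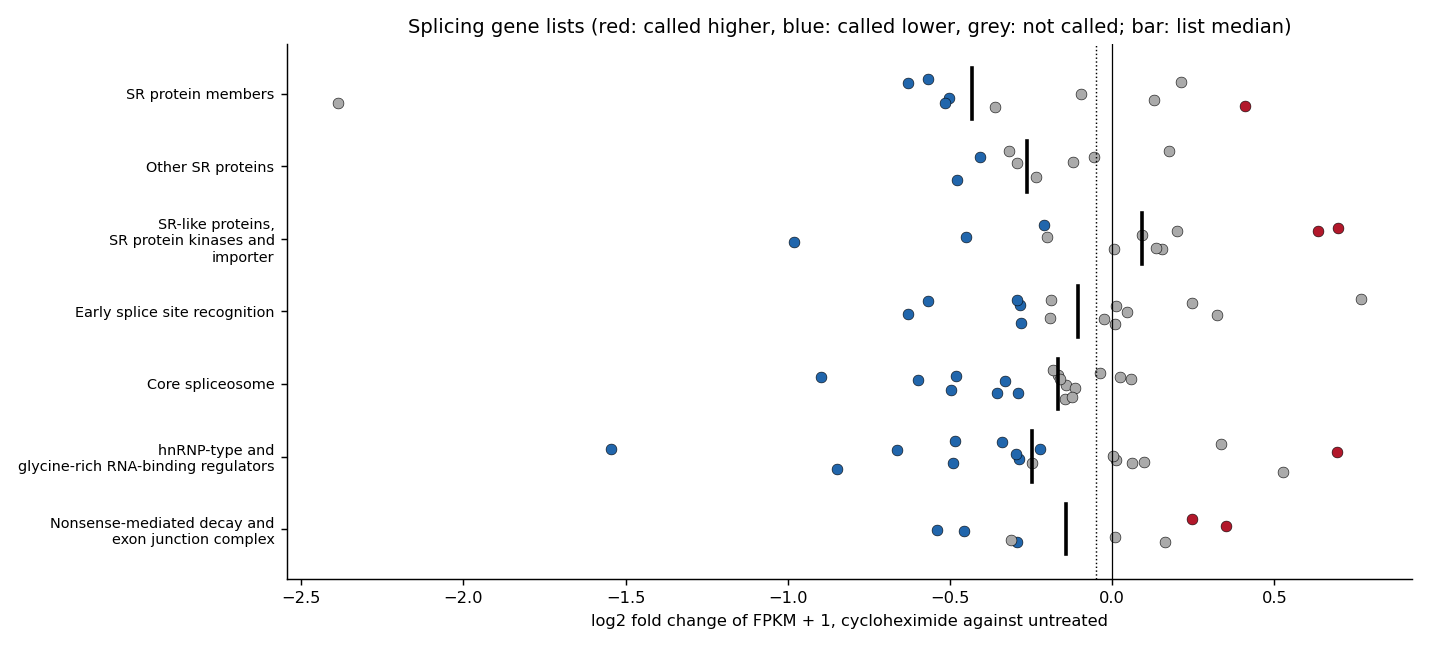
Log2 fold change of FPKM + 1 with cycloheximide against untreated for the SR protein members and 6 other lists of splicing genes, 1 point per gene (red called higher, blue called lower, grey not called), with a bar at each list's median and a dotted line at the median of all tested loci. List medians run from -0.43 in the members to 0.09 in the SR-like proteins, kinases and importer, and called genes lie on both sides of 0 in 4 of the 7 lists.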

How the data were processed

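Reads were handled by the authors with TopHat, Cufflinks and Cuffdiff on build TAIR10, per the submitters' processing notes, and no versions, parameters, read totals or scaling between libraries are given in the sources used here. A deposited table held FPKM per assembled locus and library with a status. Its lower and upper bounds, a signal on the FPKM scale per the file headers, were deposited by the authors. They were used only to describe SR34b, RS31A and intronic loci. Depth is therefore unknown, and precision rests on the 3 libraries of a group. If these were not separate cultures of plants, p-values measure technical spread.

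Of 33871 loci, the 19569 with an OK status throughout and a mean of at least 1 FPKM were tested as log2(FPKM + 1) with limma 3.58.1 in R 4.3.3 (trended, moderated variances). P-values were adjusted by Benjamini-Hochberg over all of them, and adjusted p under 0.05 was a call. Fold changes on this scale understate those of low loci. All 9 libraries entered each fit, with 6 residual degrees of freedom, grouped by their labels. Ratios used exact permutation tests, two-sided. The pipeline was tested on simulated data. Biopython 1.88 made the alignments, and matplotlib 3.10.9, pandas 2.3.3 and numpy 2.4.6 under Python 3.11.15 the figures and tables.

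The members and all gene lists were chosen with earlier results of these data known. Of each other list, up to 4 called genes with the smallest p, in cycloheximide against untreated and between the treated groups, were named. A gene that this rule names is not reported here. Where the annotation did not carry a listed name, the identifier is given. Coordinates of loci are those of the table and gene models those of RefSeq TAIR10.1, where 28.9% of 22931 loci with 1 gene had the annotated start and 28.4% the annotated end. All 97 listed genes were found in it. Protein sequences were not used here.

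Replicate numbers are shared between groups. Deviations of same-numbered libraries from their group means correlated with r of 0.353, 0.131 and 0.213 between the treated groups, which were taken as paired, and with -0.115 to 0.108 against untreated libraries, which were not. Alternatives were pseudocounts of 0.1 and 0.5, no filter or a minimum of 5 FPKM, the replicate block, only the libraries compared, median centring, quantile normalization, no loci under 300 bp, no intensity trend and leaving out each library.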

Additional observations from a re-analysis of the deposited data

How the results depend on the processing

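Over 20 alternatives for each member and comparison, 562 of 600 values kept their direction and side of the threshold, 13 lost a call, 18 gained one and 7 changed sign. The count of members called with cycloheximide against untreated was 3 to 6 when a library was left out (3 without untreated replicate 2, cycloheximide replicate 2 or cycloheximide replicate 3, when SR30 and SR34a were not called) and 5 to 7 under the other alternatives. All sign changes were of values that had not passed. With a library left out, log2 fold changes between the treated groups ran from -0.17 to 0.088 for SR34 and from -0.097 to 0.094 for RS41, above 0 without cycloheximide replicate 1 and, for RS41 (0.046), without dexamethasone + cycloheximide replicate 3. For both compounds against untreated they ran from -1.71 to 0.16 for SR34b, above 0 without dexamethasone + cycloheximide replicate 1, and from -0.21 to 0.030 for RS40, above 0 without dexamethasone + cycloheximide replicate 3. RS31 in that comparison was -0.062 after median centring and -0.085 after quantile normalization. The causes were not tested.

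With the replicate number as a block, the paired comparison of the treated groups still had 0 members called, whether 9 or 6 libraries were fitted, and the ratio of RS40 to RS41 differed by -0.19 (exact p = 0.25, the smallest that 3 pairs allow). For cycloheximide against untreated, where the numbers were not taken to pair the libraries, the block gave 7 and 6 members called. Over all loci the treated groups had 374 higher and 349 lower calls without the block, 1024 and 520 with it on 6 libraries, and 14 and 27 without it on 6 libraries. SR34 passed with cycloheximide after median centring (adjusted p = 0.0204) and quantile normalization (0.0286). Values of the short intronic loci, where a few reads give a high FPKM, are the least certain.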
